A study of Homo sapiens with 18 samples.

Results

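The genes described here are 9 members of the MHC class I antigen presentation pathway, namely HLA-B, HLA-C, HLA-E, HLA-F, B2M, TAP1, TAP2, TAPBP and NLRC5. They were chosen by name, as the non-control spots of the array that carry one of these symbols, and they make up 9 of the 36204 gene names measured, on 27 of 58717 non-control spots that hold 18 different sequences. RNA levels came from 18 one-colour human Agilent arrays, 3 biological replicates for each of 6 groups. HT29, derived from a colorectal adenocarcinoma, is sensitive to oxaliplatin (OXA), a platinum drug that damages DNA, and HTOXAR3 is a resistant subline of it that was selected by continuous exposure to rising OXA, so the resistant state is represented by 1 subline. Each line was left without drug, treated for 24 h with OXA, or treated for 24 h with OXA plus Curcumin, a plant polyphenol. HT29 received 10 µM OXA and HTOXAR3 received 30 µM OXA, which the labels call IC50 doses, and Curcumin was given at 10 µM, so a comparison of the treated lines is also a comparison of 2 OXA doses. The untreated groups carry that name in the sample labels, whereas the study's results call them vehicle-treated, and cells given Curcumin alone were not analysed here. The recorded time is 0 h for the untreated groups and 24 h for the treated ones, so treatment and recorded time go together.

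Class I molecules present peptides from inside the cell to CD8+ T cells. A heavy chain (a classical one such as HLA-B or HLA-C, or the less variable HLA-E, HLA-F or HLA-G) folds with the light chain beta-2 microglobulin, encoded by B2M. Peptides made by the proteasome are pumped into the endoplasmic reticulum by the transporter TAP, a dimer of TAP1 and TAP2, and tapasin, encoded by TAPBP, holds the empty heavy chain at the transporter until a peptide is bound. NLRC5 is the transactivator that acts with the RFX, CREB and NF-Y factors at class I promoters, and interferons and NF-κB are well known inducers of many of these genes. In colorectal cancer, loss of parts of this pathway is a known route by which tumour cells evade T cells.

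All values are log2 intensities after background correction and quantile normalization, and each gene is represented by its brightest sequence. A gene was called when the BY (Benjamini-Yekutieli) adjusted p of the limma fit to all 18 arrays, taken over all gene names, lay under 0.05 and its fold change exceeded 1.2. The share of non-control spots well above background ran from 52.4% to 63.6%, with the minimum in untreated HTOXAR3 replicate 2. The sequences used for all 9 members were well above background on all 18 arrays. Of 11 markers of colon epithelium, 7 were well above background on every array, among them EPCAM and the keratins KRT8, KRT18, KRT19 and KRT20, whereas CDX2 was so on 10 arrays, GPA33 on 9 and CDH17 on 5. Of 5 fibroblast markers 0 and of 3 endothelial markers 2 were above background throughout. Of 7 leukocyte markers, 5 were above background on every array, among them PTPRC, CD68, CD14 and ITGAM, while CD3E was so on 17 and MS4A1 on 2. The summed level of the leukocyte list ran from 10.66 to 11.67 over the 6 group means on the log2 scale and that of the epithelial list from 19.45 to 19.73. Within the leukocyte list the group means of CD14 ran from 10.22 to 11.48 and those of CD68 from 6.65 to 8.18. The part of these lists in the results was not tested. RNA came from whole cultures, in which fewer cells that express a gene and less RNA per cell cannot be told apart.

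**Figure D1:**
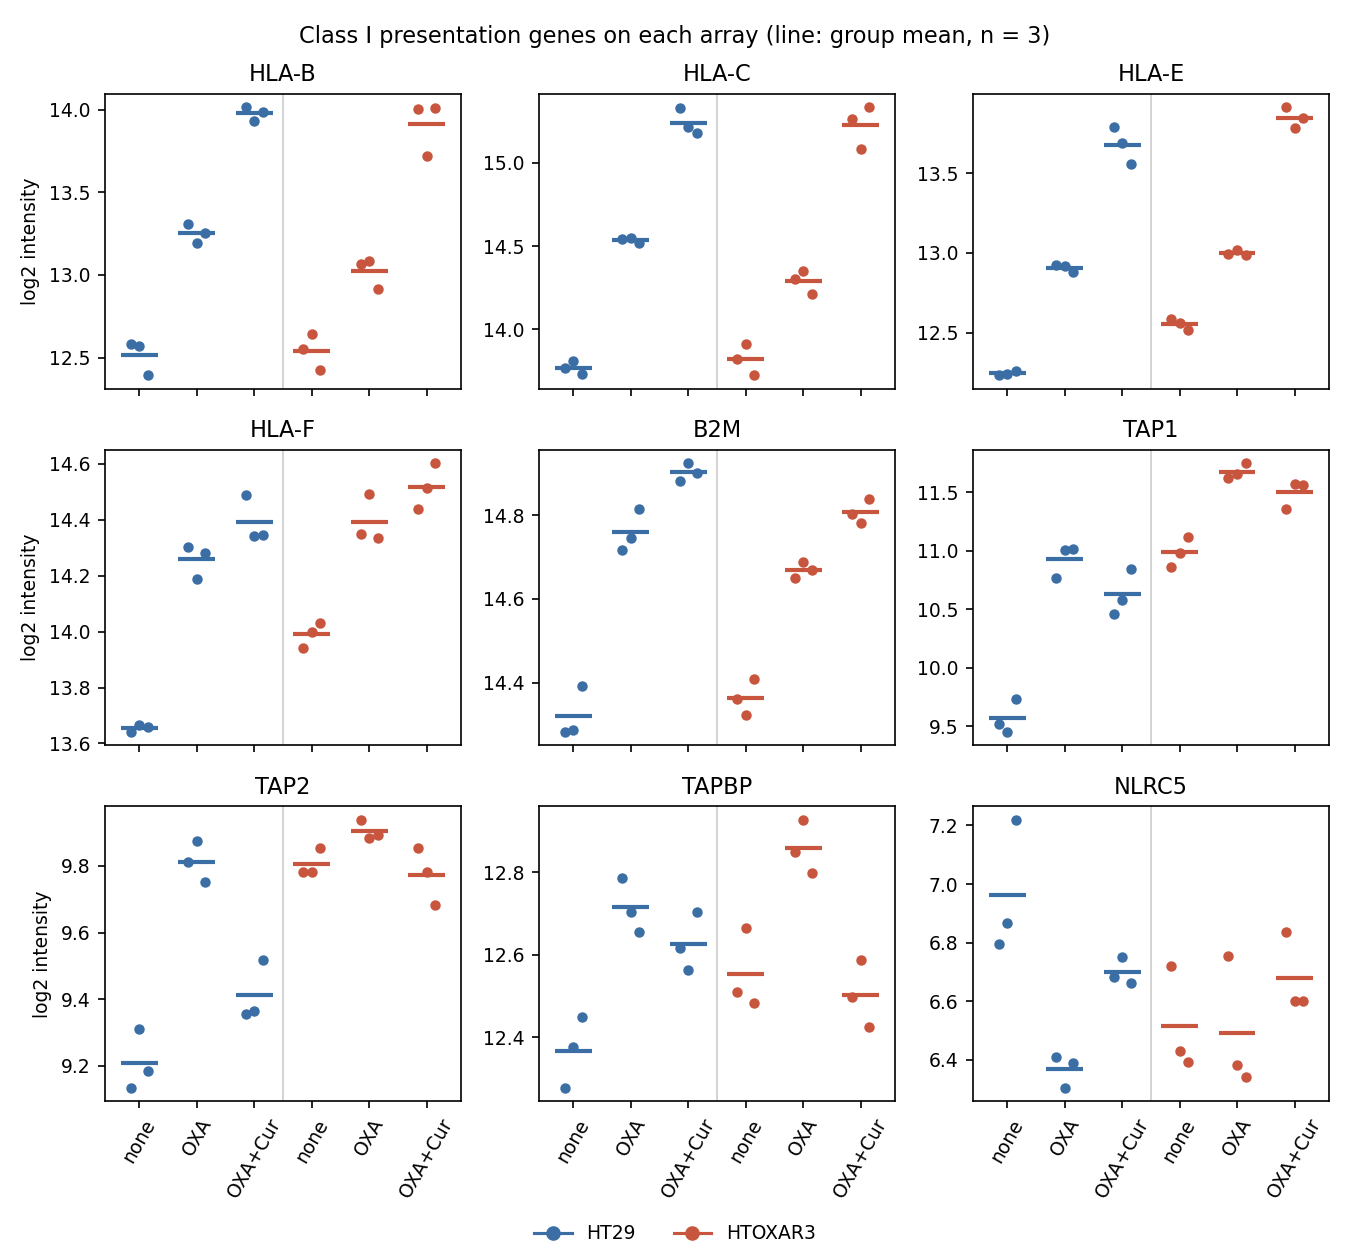
Log2 intensity of the 9 genes on each of the 18 arrays, by line (blue HT29, red HTOXAR3) and treatment, with a point for each replicate (n = 3 per group) and a horizontal line at the group mean. Each panel has its own axis range, and levels of different genes are not comparable. HLA-B, HLA-C and HLA-E climb in 2 steps in both lines, whereas TAP1 starts at 9.57 in HT29 and at 10.99 in HTOXAR3.

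Before treatment, the transporter genes TAP1 and TAP2 were higher in HTOXAR3 than in HT29, and so, by a smaller amount, were the heavy chain genes HLA-E and HLA-F. These 4 of 9 members were called higher and 0 were called lower, where 6.26% of all gene names were called higher and 5.28% lower. The median difference was 0.19 over the members and -0.03 over all names tested. HLA-B, HLA-C and B2M differed by 0.05 or less, within the spread of the replicates.

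TAP1 had the widest gap between the lines. Its 3 untreated HT29 arrays read 9.52, 9.45 and 9.74 and the 3 untreated HTOXAR3 arrays 10.86, 10.98 and 11.11, so that every resistant array lay more than 1 log2 unit above every sensitive one. The difference was 1.41 ± 0.11 (SE, n = 3 arrays per group), a 2.67-fold higher level in HTOXAR3 (BY adjusted p = 5.39e-06). It was between 1.38 and 1.47 within each of the slides that held both groups. The TAP1 sequence lies at chr6:32813210-32813269 on the minus strand of GRCh37, in the class II region of the MHC, next to TAP2 and the immunoproteasome genes.

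TAP2, the partner subunit, read 9.13, 9.31 and 9.19 in untreated HT29 and 9.78, 9.78 and 9.85 in untreated HTOXAR3, again without overlap. It was 1.51-fold higher in HTOXAR3, with a log2 difference of 0.60 ± 0.07 (SE, BY adjusted p = 0.000166). The other TAP2 sequence, which was above background on only 10 of the 18 arrays, gave a difference of 0.65 ± 0.20 (SE) that did not pass the test.

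HLA-E, which presents leader peptides of other class I chains to NK cell receptors, read 12.23, 12.24 and 12.26 in untreated HT29 against 12.58, 12.56 and 12.51 in untreated HTOXAR3. The groups did not overlap, and the difference was 0.31 ± 0.06 (SE, BY adjusted p = 0.0197), or 1.24-fold. HLA-F, a class I chain of restricted expression, was 1.26-fold higher (log2 difference 0.33 ± 0.07 SE, BY adjusted p = 0.019), and its other sequence differed by 0.60 ± 0.11 (SE). Both gene-level calls were at the edge of the test. That of HLA-E was lost on leaving out any 1 of the 6 arrays (differences 0.29 to 0.33, BY adjusted p 0.0515 to 0.112), and that of HLA-F on leaving out any of them except untreated HTOXAR3 replicate 1 (0.32 to 0.34, BY adjusted p 0.0695 to 0.109).

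The remaining members were not called in untreated cells. The difference was 0.03 ± 0.09 (SE) for HLA-B, 0.05 ± 0.07 for HLA-C and 0.04 ± 0.05 for B2M, and their arrays overlapped. TAPBP was 0.19 ± 0.07 (SE) higher with no overlap and did not pass (BY adjusted p = 1). NLRC5 lay lower on all 3 HTOXAR3 arrays (6.72, 6.43 and 6.39) than on the HT29 arrays (6.80, 6.87 and 7.22), with a difference of -0.45 ± 0.13 (SE, BY adjusted p = 0.298).

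OXA raised most of the 9 members in both lines. In HT29, 8 of 9 members were called higher and 1, NLRC5, was called lower, where 8.33% of all gene names were called higher and 7.62% lower. In HTOXAR3, 6 of 9 were called higher and 0 lower, against 5.31% and 4.94% of all names. Both counts include HLA-B and HLA-C, whose sequences share 41 bases and are not independent. In a fit to the compared groups alone, 3 members were called in HT29 and 0 in HTOXAR3, and no called difference changed its sign. The median difference of the members was 0.60 in HT29 and 0.40 in HTOXAR3, while the medians over all names were -0.01 and 0.01.

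**Figure D2:**
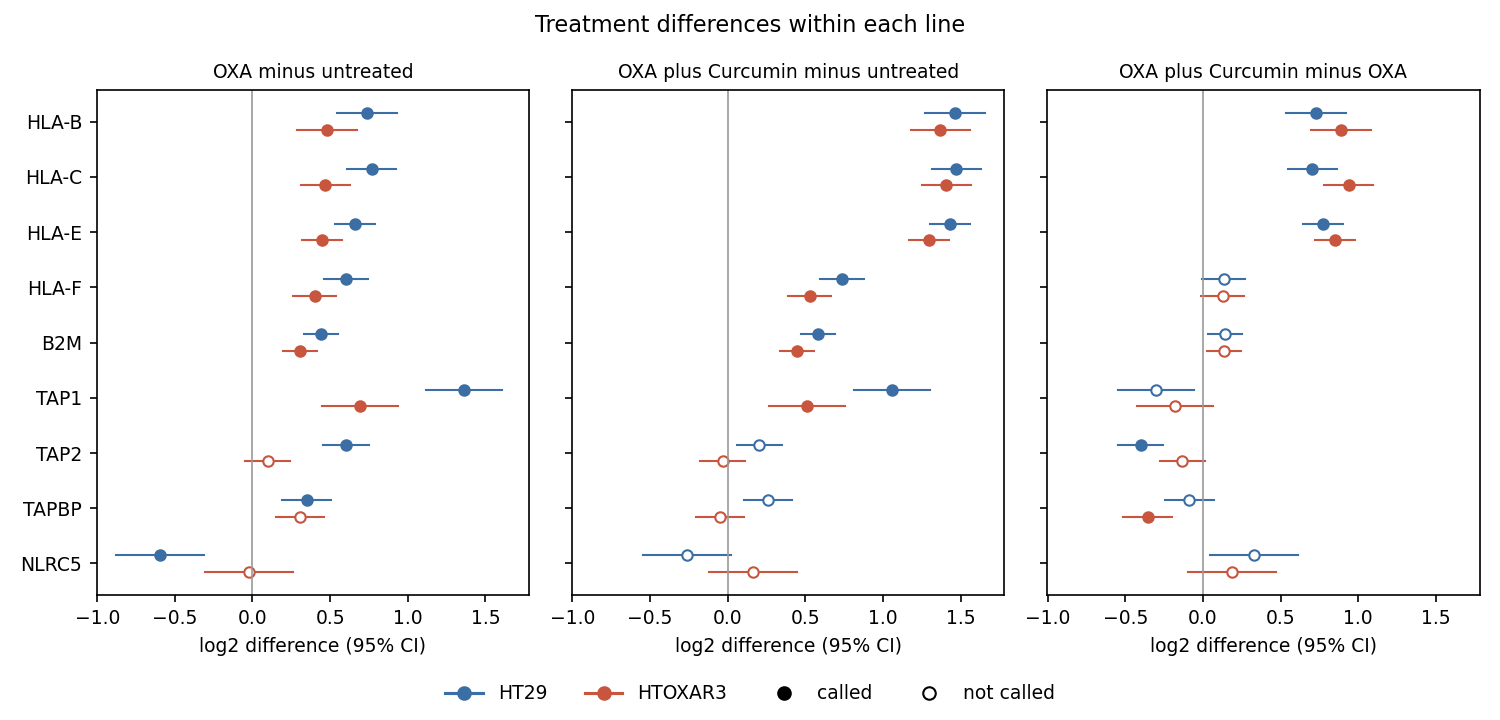
Log2 differences between treatments within each line (blue HT29, red HTOXAR3), as points with 95% confidence intervals from the limma fit to 18 arrays. Filled points were called. OXA alone moved TAP1 most, by 1.36 in HT29, whereas the step from OXA to OXA plus Curcumin moved HLA-B, HLA-C and HLA-E up in both lines and left HLA-F and B2M at 0.13 to 0.14.

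Among the classical heavy chains, HLA-B read 12.58, 12.57 and 12.39 in untreated HT29 and 13.31, 13.19 and 13.25 after OXA. In HTOXAR3 it read 12.55, 12.64 and 12.43 untreated and 13.07, 13.08 and 12.91 after OXA. In neither line did treated and untreated arrays overlap, and the rise was 1.67-fold in HT29 (log2 0.74 ± 0.09 SE, BY adjusted p = 0.00024) and 1.40-fold in HTOXAR3 (0.48 ± 0.09 SE, BY adjusted p = 0.0156). The HTOXAR3 call was lost on leaving out untreated replicate 1 or 3 or OXA replicate 1 or 2 (0.42 to 0.49, BY adjusted p up to 0.102). HLA-C rose 1.70-fold in HT29 (0.77 ± 0.07 SE, BY adjusted p = 2.6e-05) and 1.38-fold in HTOXAR3 (0.47 ± 0.07 SE, BY adjusted p = 0.00417).

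What the HLA-B and HLA-C values measure depends on the array's sequences. The array annotation lists an HLA-C transcript for both placed HLA-B sequences, and the brightest HLA-C sequence is placed on the HLA-B interval, on the minus strand of GRCh37. It shares 41 bases with the HLA-B sequence used, with 0 differences. Below are 30 bases at chr6:31321674-31321703 of the 3 overlapping 60-base sequences, with the base at which they differ in capitals, and the first 30 bases, chr6:31236647-31236676, of the other HLA-C sequence, which spans chr6:31236617-31236676 on the minus strand. They are shown because the values of HLA-B and HLA-C are not independent of each other. Whether an interval is coding or untranslated was not analysed here.
HLA-B, sequence used: taagtcaattcctggaaGttgagagagcaa
HLA-B, shifted sequence: taagtcaattcctggaaTttgagagagcaa
HLA-C, sequence used: taagtcaattcctggaaGttgagagagcaa
HLA-C, sequence on its own interval: gagctgcaacttcttacttccctaatgaag

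The HLA-C sequence on its own interval, which lacks those shared bases, rose as well. After OXA it was 0.85 ± 0.06 (SE) higher in HT29 and 0.49 ± 0.06 higher in HTOXAR3, and the difference between the untreated lines was 0.06 ± 0.06. A further HLA-B sequence, to which the array annotation gives no position and which was above background on 17 of 18 arrays, rose by 0.73 ± 0.15 (SE) after OXA in HT29 and differed by 0.47 ± 0.15 in HTOXAR3, where it was not called.

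HLA-E rose by 0.66 ± 0.06 (SE, BY adjusted p = 1.63e-05) after OXA in HT29, to 12.92, 12.92 and 12.88, and by 0.45 ± 0.06 (SE, BY adjusted p = 0.00123) in HTOXAR3, to 12.99, 13.02 and 12.99. These are 1.58-fold and 1.36-fold increases, and the treated arrays of each line lay above all its untreated ones. HLA-F rose 1.52-fold in HT29 (0.60 ± 0.07 SE, BY adjusted p = 8.28e-05) and 1.32-fold in HTOXAR3 (0.40 ± 0.07 SE, BY adjusted p = 0.00563). Its other sequence rose by 0.85 and 0.79 and was called in both lines.

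B2M, the light chain shared by all these heavy chains, read 14.28, 14.29 and 14.39 in untreated HT29 and 14.72, 14.75 and 14.81 after OXA. In HTOXAR3 it read 14.36, 14.32 and 14.41 untreated and 14.65, 14.69 and 14.67 after OXA. The groups were separate in both lines, with a 1.36-fold rise in HT29 (0.44 ± 0.05 SE, BY adjusted p = 0.00016) and a 1.24-fold rise in HTOXAR3 (0.31 ± 0.05 SE, BY adjusted p = 0.0067). B2M was measured by 1 sequence on 10 spots, at chr15:45007773-45007832 of GRCh37.

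Both transporter genes were called higher after OXA in HT29, and TAP1 alone in HTOXAR3. TAP1 reached 10.77, 11.00 and 11.02 in HT29, a 2.57-fold rise (1.36 ± 0.11 SE, BY adjusted p = 6.75e-06), and 11.62, 11.66 and 11.75 in HTOXAR3, a 1.61-fold rise (0.69 ± 0.11 SE, BY adjusted p = 0.00605). After OXA the HT29 arrays overlapped with the untreated HTOXAR3 arrays of TAP1, the 2 group means being 10.93 and 10.99. TAP2 reached 9.81, 9.87 and 9.75 in HT29, a 1.52-fold rise (0.60 ± 0.07 SE, BY adjusted p = 0.000114), which is again the level of untreated HTOXAR3. In HTOXAR3 TAP2 read 9.94, 9.88 and 9.89 after OXA, all above the untreated arrays by a mean of 0.10 ± 0.07 (SE), and was not called.

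TAPBP rose 1.27-fold after OXA in HT29, from 12.28, 12.38 and 12.45 to 12.79, 12.70 and 12.66 (0.35 ± 0.07 SE, BY adjusted p = 0.0251). In HTOXAR3 the difference was nearly as large, 0.31 ± 0.07 (SE), with no overlap, and was not called (BY adjusted p = 0.0868). It was called with a normexp offset of 50, with Benjamini-Hochberg adjustment and without dim sequences. Over the alternatives it ran from 0.18 to 0.34. The HT29 call was lost on leaving out replicate 1 or 2 of either group (0.30 to 0.35, BY adjusted p up to 0.157) and when arrays were scaled to the 75th percentile (0.31 from the processed signal and 0.32 from the mean signal). Of the 3 other TAPBP sequences, 2 rose in HT29, by 0.41 and 0.50, and 1 was not well above background on any array.

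NLRC5 moved the other way in HT29. Its 3 arrays fell from 6.80, 6.87 and 7.22 to 6.41, 6.30 and 6.39, without overlap (-0.59 ± 0.13 SE, BY adjusted p = 0.0379), while in HTOXAR3 the difference was -0.02 ± 0.13 with overlapping arrays. The call in HT29 was lost on leaving out any 1 of the 6 arrays except untreated replicate 1 (-0.64 to -0.46, BY adjusted p up to 0.202), with the slide as a block (BY adjusted p = 0.0511) and with the mean of both NLRC5 sequences (-0.31), and the difference was -0.40 with a normexp offset of 50, where it was called. The NLRC5 sequence used lies at chr16:57077428-57077487 of GRCh37, and the other NLRC5 sequence was not well above background on any array, so it gives no second measurement.

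With OXA plus Curcumin, compared with untreated cells, HLA-B, HLA-C, HLA-E, HLA-F, B2M and TAP1 were called higher in both lines, which is 6 of 9 members in each and 0 called lower. Over all gene names, 9.56% were called higher and 9.02% lower in HT29, and 8.82% and 8.64% in HTOXAR3. Among the members, HLA-B and HLA-C are again not independent, since their sequences share 41 bases. The median of the members was 0.74 in HT29 and 0.51 in HTOXAR3, with medians over all names of -0.03 and -0.01. These comparisons share their untreated arrays with those of OXA alone.

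The increases of HLA-B, HLA-C and HLA-E were the largest of the pathway and nearly alike in the 2 lines. HLA-B reached 14.02, 13.93 and 13.99 in HT29, 2.76-fold above untreated cells (1.46 ± 0.09 SE, BY adjusted p = 2.85e-07), and 14.00, 13.72 and 14.01 in HTOXAR3, 2.59-fold above (1.37 ± 0.09 SE, BY adjusted p = 6.97e-07). The HLA-B sequence without a position rose less, from means of 5.21 to 6.00 in HT29 and of 5.35 to 5.98 in HTOXAR3. HLA-C was 2.77-fold and 2.65-fold higher (1.47 and 1.41, each ± 0.07 SE), and its sequence on its own interval gave 1.60 and 1.48. HLA-E reached 13.79, 13.69 and 13.56 in HT29 and 13.92, 13.78 and 13.85 in HTOXAR3, which are 2.70-fold (1.43 ± 0.06 SE, BY adjusted p = 1.04e-08) and 2.45-fold (1.30 ± 0.06 SE, BY adjusted p = 4.03e-08) increases.

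HLA-F and B2M rose less. HLA-F was 1.66-fold higher in HT29 (0.74 ± 0.07 SE) and 1.44-fold higher in HTOXAR3 (0.53 ± 0.07 SE). B2M was 1.5-fold higher in HT29, at 14.88, 14.92 and 14.90, and 1.36-fold higher in HTOXAR3, at 14.80, 14.78 and 14.84, with treated and untreated arrays well apart. TAP1 was 2.08-fold higher in HT29, at 10.46, 10.58 and 10.84, and 1.43-fold higher in HTOXAR3, at 11.36, 11.57 and 11.56 (0.51 ± 0.11 SE, BY adjusted p = 0.0344). The HTOXAR3 call of TAP1 was lost on leaving out untreated replicate 1 or 2 or combined-treatment replicate 2 or 3 (0.45 to 0.51, BY adjusted p up to 0.205).

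TAP2, TAPBP and NLRC5 were not called against untreated cells in either line. In HT29 their differences were 0.20 ± 0.07, 0.26 ± 0.07 and -0.26 ± 0.13 (SE), each without overlap of the arrays. In HTOXAR3 they were -0.03, -0.05 and 0.16, each with overlap. With the mean of all TAPBP sequences, TAPBP was called higher in HT29, which made 7 called members. Over the alternatives its difference in HT29 ran from 0.20 to 0.41.

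The step from OXA alone to OXA plus Curcumin raised HLA-B, HLA-C and HLA-E in both lines, while TAP2 was called lower in HT29 and TAPBP was called lower in HTOXAR3. That makes 3 of 9 members higher and 1 lower in each line, where 3.14% of all names were called higher and 2.39% lower in HT29, and 4.43% and 4.41% in HTOXAR3. The calls of HLA-B and HLA-C come from sequences that share 41 bases, so they are not independent of each other. The lower call in HTOXAR3, that of TAPBP, was lost with the replicate block and on leaving out any 1 array, which leaves 3 called members. In a fit to the compared groups alone, 0 members were called in HT29 and 1 in HTOXAR3, and no called difference changed its sign. The median of the members was 0.14 in both lines and that of all names -0.02.

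Adding Curcumin raised HLA-B by 0.73 ± 0.09 (SE, BY adjusted p = 0.00116) in HT29 and by 0.89 ± 0.09 (SE, BY adjusted p = 0.00013) in HTOXAR3, which are 1.65-fold and 1.85-fold. HLA-C rose 1.63-fold and 1.92-fold, and its sequence on its own interval rose by 0.74 and 0.99. HLA-E rose by 0.77 ± 0.06 (SE, BY adjusted p = 2.63e-05) in HT29 and by 0.85 ± 0.06 (SE, BY adjusted p = 6.72e-06) in HTOXAR3, so that in both lines all the arrays with Curcumin lay above all those with OXA alone. Within each slide that held both groups, the HLA-E difference was 0.68 to 0.82 in HT29 and 0.81 to 0.92 in HTOXAR3. Of the 7 leukocyte markers, 1 was called higher and 1 lower in each line at this step, against 3.14% and 2.39% of all names in HT29 and 4.43% and 4.41% in HTOXAR3, and the median of the list was -0.06 and -0.26. The higher one, CD68, rose by 1.19 in HT29 and 1.40 in HTOXAR3, whereas only 3 of the 7 differences were above 0 in HT29 and 2 in HTOXAR3. The part of these markers in the results was not tested.

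The HLA-B sequence without a position was dim, and no clear rise of it was seen at this step. It differed by 0.06 ± 0.15 (SE) in HT29 and by 0.16 ± 0.15 in HTOXAR3 between OXA plus Curcumin and OXA, with overlapping arrays, where the placed HLA-B sequences rose by 0.73 to 0.94. In HT29 the means of the sequence without a position were 5.94 with OXA and 6.00 with both drugs. Those of the HLA-B sequence used were 13.25 and 13.98. The part of the lower level in this result was not tested. The array annotation pairs the sequence without a position with other transcripts than the placed ones. HLA-F differed by 0.13 in both lines by the sequence used, and by -0.03 and 0.05 by the other sequence, and B2M by 0.14 in both lines, none of them called.

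**Figure D3:**
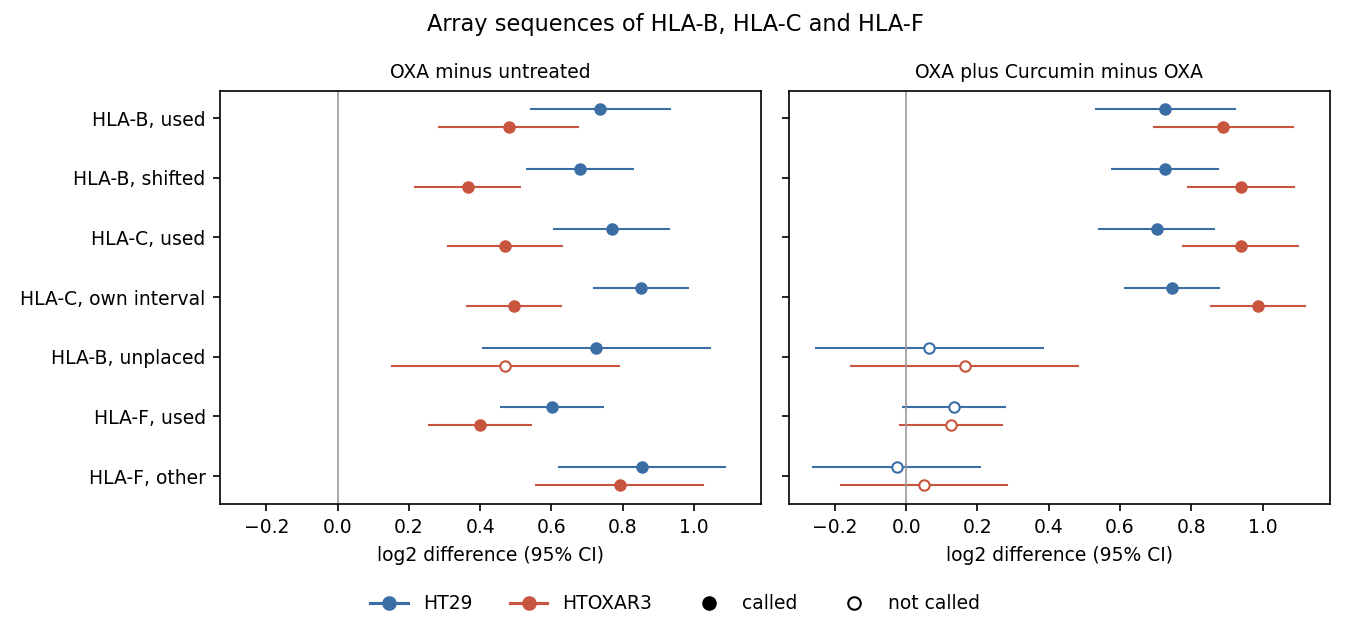
Log2 differences of the single array sequences of HLA-B, HLA-C and HLA-F for OXA minus untreated and for OXA plus Curcumin minus OXA, by line (blue HT29, red HTOXAR3), with 95% confidence intervals, filled where called in a fit over all sequences. The 4 upper rows, which include the overlapping sequences, rise in both steps, whereas the HLA-B sequence without a position and both HLA-F sequences lie between -0.03 and 0.16 in the second step.

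TAP2 fell in HT29 on the addition of Curcumin, from 9.81, 9.87 and 9.75 with OXA to 9.36, 9.37 and 9.52, a level of 0.76 times that with OXA alone (-0.40 ± 0.07 SE, BY adjusted p = 0.0135). The arrays did not overlap. The call was lost on leaving out replicate 1 or 2 of either group (-0.40 to -0.37, BY adjusted p up to 0.0894) and with the mean of both TAP2 sequences (BY adjusted p = 0.0878), although the other sequence differed by -0.50. In HTOXAR3 the difference of TAP2 was -0.13 ± 0.07 (SE) and was not called.

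TAPBP fell in HTOXAR3 from 12.85, 12.93 and 12.80 with OXA to 12.50, 12.59 and 12.43 with OXA plus Curcumin (-0.36 ± 0.07 SE, BY adjusted p = 0.0364). For this comparison the replicate numbers paired the arrays, and with the replicate block the difference was the same and was no longer called (BY adjusted p = 0.0571). Nor was it called on leaving out any 1 of the 6 arrays (-0.40 to -0.32, BY adjusted p 0.0504 to 0.232), with the slide as a block (BY adjusted p = 0.0683) or with the mean of the 4 TAPBP sequences, which was -0.18. TAP1 differed by -0.30 ± 0.11 (SE) in HT29 and by -0.18 ± 0.11 in HTOXAR3, and NLRC5 by 0.33 ± 0.13 and 0.19 ± 0.13, with no call.

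After treatment the lines were compared again, on the treated arrays. After OXA only TAP1 was called, 1.68-fold higher in HTOXAR3 (0.75 ± 0.11 SE, BY adjusted p = 0.0021), which is 1 of 9 members higher and 0 lower, against 7.14% and 6.98% of all names. After OXA plus Curcumin TAP1 was 1.83-fold higher (0.87 ± 0.11 SE, BY adjusted p = 0.000523) and TAP2 1.28-fold higher (0.36 ± 0.07 SE, BY adjusted p = 0.0122), which is 2 of 9 higher and 0 lower, against 6.95% and 6.92%. The members' median was 0.09 after OXA and -0.01 after OXA plus Curcumin, where the medians over all names were -0.0004 and 0.01. The TAP2 call after the combined treatment was lost on leaving out replicate 1 or 2 of either group (0.32 to 0.35, BY adjusted p up to 0.0809). After the combined treatment 3 members were called under some alternatives. HLA-E was gained with either scaling to the 75th percentile, and HLA-F with the mean of all sequences. Over the alternatives the HLA-E difference ran up to 0.31, against 0.17, and that of HLA-F up to 0.37, against 0.13.

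TAP1 was thus called higher in HTOXAR3 under all 3 treatments, and its highest HT29 array of a treatment always lay below its lowest HTOXAR3 array of the same treatment. HLA-B and HLA-C went the other way after OXA, where all HTOXAR3 arrays lay below all HT29 arrays, with differences of -0.23 ± 0.09 and -0.25 ± 0.07 (SE) that were not called. B2M was likewise lower on all HTOXAR3 arrays, by -0.09 ± 0.05 (SE). The HLA-C sequence on its own interval was called there, at -0.29 ± 0.06 (SE, BY adjusted p = 0.031 over all sequences). After the combined treatment HLA-B and HLA-C overlapped between the lines.

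**Figure D4:**
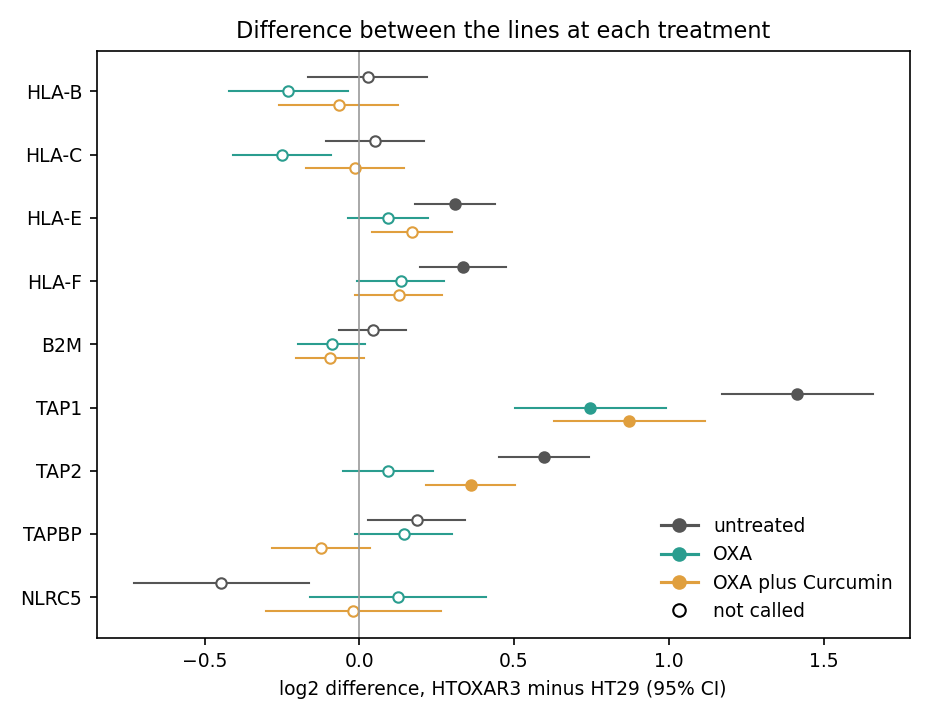
Log2 differences between HTOXAR3 and HT29 for the 9 genes in untreated cells (grey), after OXA (green) and after OXA plus Curcumin (orange), with 95% confidence intervals, filled where called. The lines received different OXA doses. TAP1 lies to the right of 0 throughout, at 1.41, 0.75 and 0.87, and the intervals of HLA-B, HLA-C and B2M include 0 or lie just below it.

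Whether the 2 lines responded differently was tested by interaction terms, each being the treatment difference in HTOXAR3 minus that in HT29. By limma with BY adjustment 0 of 9 members were called for OXA, for OXA plus Curcumin or for the addition of Curcumin, where 1.01%, 0.856% and 0.135% of all gene names were called in either direction. At an unadjusted p below 0.05 the counts were 6, 5 and 3 of 9, against 13.7%, 14.4% and 9.74% of all gene names. For OXA, 8 of the 9 estimates were below 0, with a median of -0.22 against 0.01 over all names. TAP1 had an estimate of -0.67 (95% CI -1.01 to -0.32, BY adjusted p = 0.421) and TAP2 of -0.50 (95% CI -0.71 to -0.30, BY adjusted p = 0.105). With Benjamini-Hochberg adjustment these 2 passed, at 0.038 for TAP1 and 0.00947 for TAP2. TAP1 also passed with the replicate block, at an adjusted p of 0.04, and with the slide as a block (-0.73, adjusted p = 0.0285). For the addition of Curcumin the estimates were 0.16 for HLA-B (95% CI -0.11 to 0.44), 0.23 for HLA-C (95% CI 0.01 to 0.46) and 0.08 for HLA-E (95% CI -0.11 to 0.26). The median interaction of the members was -0.14 for OXA plus Curcumin and 0.08 for the addition of Curcumin, both against 0.02 or less over all names.

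The order of the group means sets the members apart from each other. HLA-B and HLA-C rise through untreated HT29, untreated HTOXAR3, HTOXAR3 with OXA, HT29 with OXA, HTOXAR3 with both drugs and HT29 with both drugs, and in this order the untreated groups overlap with each other, as do the groups with both drugs. HLA-E has the same 3 tiers of treatment with HTOXAR3 above HT29 in each, and within its top tier the arrays overlap. For TAP1 the order is untreated HT29, HT29 with both drugs, HT29 with OXA, untreated HTOXAR3, HTOXAR3 with both drugs and HTOXAR3 with OXA, and the arrays of HT29 with OXA overlap with both neighbouring groups. HLA-F is lowest in untreated HT29 (13.66), then in untreated HTOXAR3 (13.99), and its 4 treated groups lie between 14.26 and 14.52. B2M has both untreated groups at 14.32 and 14.36, overlapping, and its treated groups between 14.67 and 14.90. TAPBP runs from 12.37 in untreated HT29 to 12.86 in HTOXAR3 with OXA, and each group but the last overlaps with the one before it. TAP2 is lowest in untreated HT29 (9.21), then in HT29 with both drugs (9.41), while the other 4 groups lie between 9.77 and 9.91. NLRC5 is highest in untreated HT29 (6.96) and lowest in HT29 with OXA (6.37), and the other 4 groups overlap with a neighbour in between.

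The genes whose pattern over the 18 arrays was most like that of these members were taken from the names above background on every array with group means that span at least 1 log2 unit. For the mean of HLA-B, HLA-C, HLA-E, HLA-F and B2M the highest of 3818 correlations was that of HLA-J, a class I pseudogene (Pearson r = 0.997), followed by C2orf54 (0.992), GADD45B (0.991), ATP6V0B (0.986) and CYB5R1 (0.986). For TAP1 they were GSTT2 (0.983), EPHB6, DNAH2 and PPP1R18 (0.981 each) and PTPN7 (0.979) of 3820. The arrays share 6 group means, so these values describe a likeness between groups.

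The promoters of 4 members that rose after OXA in HT29 are shown with letters that are typical of class I promoters. RefSeq promoter entries on GRCh38.p14 were found by symbol for 7 of the 9 members, with 2 entries for TAP1, and the 250 bases before the start were searched on both strands. An ISRE-like core, made of 2 copies of GAAA parted by any 2 bases, was in 5 of these 8 entries and in 3.02% of all 35116 promoters. Its shorter form AANNGAAA, which overlaps it, was in 7 of 8 against 20.3%, the CRE core TGACG in 4 of 8 against 21.2%, CCAAT, the Y box letters, in 5 of 8 against 32%, and the NF-κB letters, GGGGA and TCCCC parted by any 1 base, in 1 of 8, HLA-B, against 0.0655%. The other TAP1 entry held none of them. In the 4 sequences below all matches to these letters are in capitals. Matches are descriptions of these windows, not binding sites.
HLA-B, chr6:31357226-31357361, minus strand: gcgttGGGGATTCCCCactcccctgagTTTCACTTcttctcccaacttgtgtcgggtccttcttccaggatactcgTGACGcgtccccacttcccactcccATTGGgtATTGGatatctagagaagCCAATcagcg
B2M, chr15:44711368-44711477, plus strand: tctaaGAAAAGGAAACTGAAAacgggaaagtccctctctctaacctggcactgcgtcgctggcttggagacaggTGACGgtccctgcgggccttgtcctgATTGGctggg
TAP1, chr6:32853818-32853954, minus strand: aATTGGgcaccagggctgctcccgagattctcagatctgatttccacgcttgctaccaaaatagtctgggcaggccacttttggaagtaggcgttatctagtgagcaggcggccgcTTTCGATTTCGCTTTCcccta
TAP2, chr6:32838765-32838806, minus strand: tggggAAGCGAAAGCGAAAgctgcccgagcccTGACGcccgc

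The HLA-B window has a single AANNGAAA match, read on the opposite strand, 155 bases before the start, with TGACG 106 bases and CCAAT 81, 74 and 56 bases before it. HLA-C, whose window is not printed, has 1 AANNGAAA match 151 bases, TGACG 105 bases and CCAAT 192, 95, 80 and 56 bases before the start. B2M has 2 overlapping ISRE-like matches, TGACG 75 bases and CCAAT 49 bases before the start. TAP1 has 2 overlapping ISRE-like matches beginning 134 and 128 bases before the start, and TAP2 has 1 beginning 58 bases before it.

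The other genes of the pathway were taken as lists. Of 11 genes of peptide supply and loading, 4 were called higher and 0 lower after OXA in HT29, and 0 higher and 1 lower in HTOXAR3, with medians of -0.04 and -0.07. Over all names 8.33% were called higher in HT29 and 4.94% lower in HTOXAR3. In HT29 the immunoproteasome subunits PSMB8 and PSMB9 rose by 0.74 and 0.57, the proteasome activator PSME2 by 0.32 and the trimming peptidase ERAP2 by 0.47. In HTOXAR3 the chaperone calreticulin, encoded by CALR, fell by 0.43. PSMB9 was also the 1 gene of this list called between the untreated lines, 0.55 higher in HTOXAR3, where 6.26% of all names were called higher. When Curcumin was added, 1 gene of this list was called higher and 0 lower in HT29, and 2 higher and 2 lower in HTOXAR3. Over all names 3.14% were called higher and 2.39% lower in HT29, and 4.43% and 4.41% in HTOXAR3. PDIA3, the disulphide isomerase of the loading complex, rose by 0.52 in HT29 and 0.44 in HTOXAR3. In HTOXAR3 CALR rose by 0.44, while PSMB8 fell by 0.64 and PSMB10 by 0.32.

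Of 10 other class I and class I-like genes on the array, 3 were called higher and 0 lower after OXA in each line, among them HLA-G (0.70 in HT29 and 0.47 in HTOXAR3) and the pseudogene HLA-J (0.80 and 0.47). Over all names 8.33% were called higher in HT29 and 5.31% in HTOXAR3. With OXA plus Curcumin 4 were called higher in HT29 and 6 in HTOXAR3, with 0 lower and medians of 0.41 and 0.58, where 9.56% and 8.82% of all names were called higher. Among the 6, CD1D, was above background on 0 arrays. On the addition of Curcumin HLA-J rose by 0.61 in HT29 and 0.75 in HTOXAR3. MICA and MICB, stress-induced ligands of the NK receptor NKG2D, rose on the addition of Curcumin in both lines, by 0.79 and 0.96 and by 0.72 and 0.83.

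**Figure D5:**
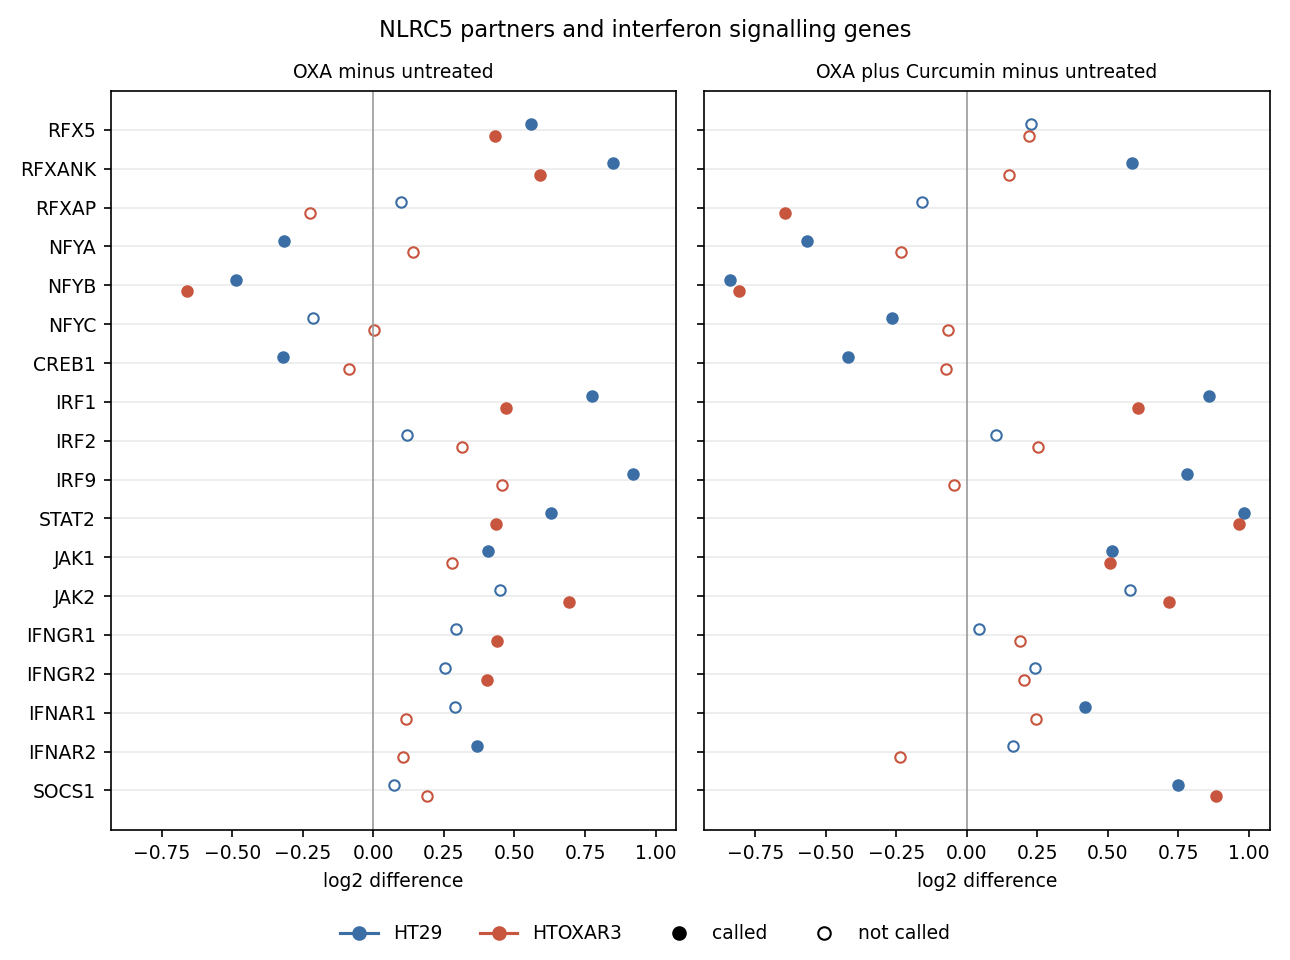
Log2 differences of 18 of the 19 listed genes that encode NLRC5 partners and interferon signalling components, after OXA and after OXA plus Curcumin, each against untreated cells, by line (blue HT29, red HTOXAR3). Filled points were called. IRF1 and STAT2 lie to the right of 0 in all 4 comparisons and NFYB to the left.

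Among 19 genes of NLRC5 partners and interferon signalling, 7 were called higher and 3 lower after OXA in HT29, and 7 higher and 1 lower in HTOXAR3, with medians of 0.29 and 0.28, against -0.01 and 0.01 over all names. Over all names 8.33% were called higher and 7.62% lower in HT29, and 5.31% and 4.94% in HTOXAR3. IRF1, a transcription factor that acts at interferon-responsive sites, rose by 0.77 and 0.47. RFX5 and RFXANK, subunits of the RFX complex, rose by 0.56 and 0.43 and by 0.85 and 0.59, while NFYB, a subunit of NF-Y, fell by 0.49 and 0.66. STAT2 rose in both lines after OXA, by 0.63 and 0.44. When Curcumin was added, 1 gene of this list was called higher in each line, STAT2, by 0.35 and 0.53, and 1 was called lower in HT29 and 3 in HTOXAR3, with medians of -0.05 and -0.07. Over all names 3.14% were higher and 2.39% lower at this step in HT29, and 4.43% and 4.41% in HTOXAR3. The lower ones were NFYB (-0.35) in HT29 and RFXANK (-0.44), NFYA (-0.37) and IFNAR2 (-0.34) in HTOXAR3. Between the untreated lines 3 were called higher and 2 lower, IRF9 being 0.50 higher and CREB1 differing by -0.77 in HTOXAR3, where 6.26% and 5.28% of all names were called. With OXA plus Curcumin 7 were called higher and 4 lower in HT29, and 5 higher and 2 lower in HTOXAR3, against 9.56% and 9.02% of all names in HT29 and 8.82% and 8.64% in HTOXAR3.

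Class II genes encode the molecules that present peptides to CD4+ T cells. Of 12, 1 was called higher and 0 lower after OXA in HT29, where 8.33% of all names were called higher, and 0 were called in HTOXAR3. With OXA plus Curcumin 0 were called higher and 1 lower in each line, where 9.02% of all names were lower in HT29 and 8.64% in HTOXAR3. Between the untreated lines 0 were called higher and 1, HLA-DPA1, was called lower in HTOXAR3 (-0.825), where 5.28% of all names were called lower. Between the treated lines 2 were called lower in HTOXAR3 after OXA and 3 after OXA plus Curcumin, against 6.98% and 6.92% of all names. The 3 were HLA-DMA, HLA-DMB and HLA-DPA1, with differences of -0.91, -1.26 and -0.78. Of the 12, 8 were above background on all 18 arrays, while CIITA, the class II transactivator, was so on 7 arrays, HLA-DQA1 on 3, the invariant chain gene CD74 on 2 and HLA-DRA on 0. Among 7 interferon genes on the array 1, IFNL1, was called after OXA, with increases of 1.13 in HT29 and 1.21 in HTOXAR3, where 8.33% and 5.31% of all names were called higher, and it fell by 1.19 when Curcumin was added in HTOXAR3. It was above background on 15 arrays, while IFNG was above background on 0 arrays and IFNB1 on 5.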

How the data were processed

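Total RNA from 3 cultures of each of 6 groups was labelled with Cy3 and hybridised to 18 one-colour arrays, and per the labels these are biological replicates. The authors deposited the Agilent Feature Extraction output (version 10.7.3.1), whose mean and background signals are linear intensities without normalization between arrays, and whose processed signal is an intensity with background and trends removed. Their normalized log2 values were deposited too, without gene names, and those 18 columns were not used. Following the study's methods, intensities were corrected with normexp and quantile normalized. The normexp offset was 0. The authors' offset is not given in the sources used here, and their deposited log2 values start at 5.65, close to log2 of 50. Other steps were chosen here. The mean signal was used, control spots were left out before normalization, values were averaged per sequence, and outlier spots were treated as missing. Of the 36204 names, 8947 had more than 1 sequence, and the brightest on average represented the gene. All 9 members matched RefSeq by symbol. A model of 6 group terms was fitted to all 18 arrays with limma 3.58.1 in R 4.3.3 (reading with the R package data.table, version 1.17.8), checked on simulated data, and figures were made with Python 3.11.15, pandas 2.3.3 and matplotlib 3.10.9. Calls needed both a fold change over 1.2 and a BY adjusted p under 0.05. Standard errors and 95% intervals are those of the fit.

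The members and the lists were chosen with earlier results of these data known. Every member is named, and of the lists the text names called genes and those listed for their role. Some list genes are counted but not reported here singly. Array positions are those of the deposited annotation on GRCh37, and promoters those of RefSeq on GRCh38.p14. Slide 1 held 2 arrays and slides 2 and 3 held 8 each, with every group on both. Replicate numbers were checked as pairs by the correlation of deviations from group means. They paired the arrays, with every correlation above 0.1, for OXA in HT29 (0.118 to 0.241) and for added Curcumin in HTOXAR3 (0.108 to 0.194), the only comparisons in which both arrays of every pair lay on the same slide. The highest correlation of any 2 arrays was 0.995, so none appeared as 1 hybridisation deposited under different names. Alternatives were normexp offsets of 16 and 50, scaling to the 75th percentile of the processed or the mean signal, the mean of all sequences, Benjamini-Hochberg adjustment, a 2-fold minimum, leaving out dim sequences, a fit to the compared groups alone, slide and replicate blocks, and leaving out each array. Precision is limited by the 3 arrays of each group.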

Additional observations from a re-analysis of the deposited data

How the results depend on the processing

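No difference of a member that was called changed its sign in any of the alternatives tried, over 42 called differences. Over 1998 values of single members under an alternative, 113 lost their call, 14 gained one and 0 reversed. Of the 113 losses, 42 came from leaving out single arrays, 33 from the 2-fold minimum and 30 from fits to the compared groups alone. Under the 2-fold minimum the counts of called members fell to 1 for the untreated lines, 0 and 0 for the lines after OXA and after OXA plus Curcumin, 1 and 0 for OXA in HT29 and HTOXAR3, 3 for OXA plus Curcumin in HTOXAR3, and 0 and 0 for added Curcumin, while the fits to the compared groups gave 1, 0, 0, 3, 0, 3, 0 and 1 for the same comparisons in the same order. For OXA plus Curcumin in HT29 both left 4 of 6. Such a fit has fewer arrays from which to estimate the spread. The interaction of line and OXA gained calls, 1 with a normexp offset of 50, 2 with Benjamini-Hochberg adjustment, 1 without dim sequences, 1 with the slide as a block and 1 with the replicate block. The replicate block changed 1 other call, that of TAPBP for added Curcumin in HTOXAR3, which left 3 members called.

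On leaving out 1 array at a time, the number of called members ran from 2 to 3 for the untreated lines, stayed at 1 after OXA, and ran from 1 to 2 after OXA plus Curcumin. It ran from 7 to 8 for OXA in HT29 and from 5 to 6 in HTOXAR3, was 6 for OXA plus Curcumin in HT29 and 5 to 6 in HTOXAR3, and was 3 to 4 and 3 for added Curcumin. All 3 interactions stayed at 0. Signal over background limits the second sequences of TAP2 and NLRC5, above background on 10 and 0 arrays, and the HLA-B sequence without a position, on 17.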
